A study of Mus musculus with 14 samples.

Results

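The CC chemokine genes Ccl2, Ccl3, Ccl4, Ccl5, Ccl6, Ccl7, Ccl8, Ccl9, Ccl11 and Ccl12 lie on mouse chromosome 11 in 2 groups that are 1.41 Mb apart. These 10 genes were followed through 14 lists of transcription factor (TF) binding sites from 5 stages of blood cell formation. A site, or peak, was assigned to a gene when it overlapped the RefSeq span of the gene (build GRCm38) extended by 15 kb on each side. A peak that fell in several such windows was counted once for the cluster. By this rule 79 of 158488 peaks belonged to the cluster, and the 10 genes were compared with all 21774 RefSeq protein-coding genes.

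The peaks came from ChIP-seq, in which DNA bound by a factor is recovered with an antibody and sequenced, on cells grown in culture from a mouse embryonic stem cell line of strain 129, which carries a GFP reporter in the Brachyury gene. Mesoderm (MES) cells were GFP+ and Flk1-, hemangioblast (HB) cells GFP+ and Flk1+, hemogenic endothelium (HE) cells Tie2+, cKit+ and CD41-, hematopoietic progenitors (HP) CD41+, and macrophages (MAC) CD11b+. Antibodies to C/EBPβ were used at all 5 stages, to ELK4 in MES, to GATA2 in HB and HP, to GATA1 and GFI1B in HP, to RUNX1 in HP and MAC, and to PU.1, the product of Spi1, in HP and MAC. Each combination of factor and stage had 1 list, so there were no replicates to measure a spread from, and every difference is between single lists. The lists held from 72 peaks (MAC RUNX1) to 82866 peaks (MAC PU.1), the cutoff of each list was chosen separately by the authors, and a longer list is therefore not a measure of more binding. Peaks carried no score, sequencing depth was not analysed here, and RNA was not analysed here, so that neither the strength of a peak nor the expression of a member can be given.

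Chemokines are small secreted proteins that draw leukocytes along a concentration gradient by acting on G protein-coupled receptors. The CC class, named for its adjacent cysteines, acts mainly on monocytes, macrophages, eosinophils and T cells, and activated macrophages are themselves a major source of several of its members. Many CC chemokine genes arose by tandem duplication. In macrophages, PU.1 is an ETS family factor that marks lineage-specific regulatory DNA, and C/EBPβ is a basic leucine zipper factor of inflammatory gene control.

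The first group, called the Ccl2 arm here, holds 5 genes that are all transcribed from the plus strand. Ccl2 (chr11:82035577-82037452), Ccl7 (chr11:82045712-82047525), Ccl12 (chr11:82101845-82103399) and Ccl8 (chr11:82115185-82116799) encode monocyte chemoattractant proteins. Ccl11 (chr11:82057832-82062955) encodes eotaxin, which attracts eosinophils. The second group, the Ccl5 arm, holds the other 5. Ccl5 (chr11:83525778-83530518) encodes RANTES, which attracts T cells and monocytes. Ccl9 (chr11:83572917-83578636) and Ccl6 (chr11:83587886-83593087) encode chemokines of rodents that act on myeloid cells. Ccl3 (chr11:83647843-83649378) and Ccl4 (chr11:83648624-83664683) encode the macrophage inflammatory proteins alpha and beta. Ccl4 is transcribed from the plus strand and the other genes of the Ccl5 arm from the minus strand. The RefSeq span of Ccl4 includes a predicted transcript that starts inside Ccl3, 13960 bp before the start of the curated transcript at position 83662584.

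Of the 14 lists, 10 had no peak in any window. C/EBPβ had none in MES, where 5.75% of all coding genes had a peak by the same rule, none in HB, where 3.7% did, and none in HE, where 0.579% did. ELK4 in MES (4.1% of coding genes) and GATA2 in HB (0.335%) had none either. In HP, the lists of GATA1 (1.54%), GATA2 (2.91%), GFI1B (10.5%) and RUNX1 (6.81%) were without a peak at the 10 genes, as was the list of RUNX1 in MAC (0.404%). With so few coding genes reached by these lists, 0 of 10 members does not set the members apart from other genes. For C/EBPβ the windows held no peak in MES, HB and HE, 3 peaks in HP and 35 in MAC, in lists of 1177, 715, 132, 2716 and 55471 peaks. As a share of its list the order of HP and MAC was the other way round, with 0.11% of the HP and 0.0631% of the MAC C/EBPβ peaks in the windows, the former from 3 peaks.

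**Figure D1:**
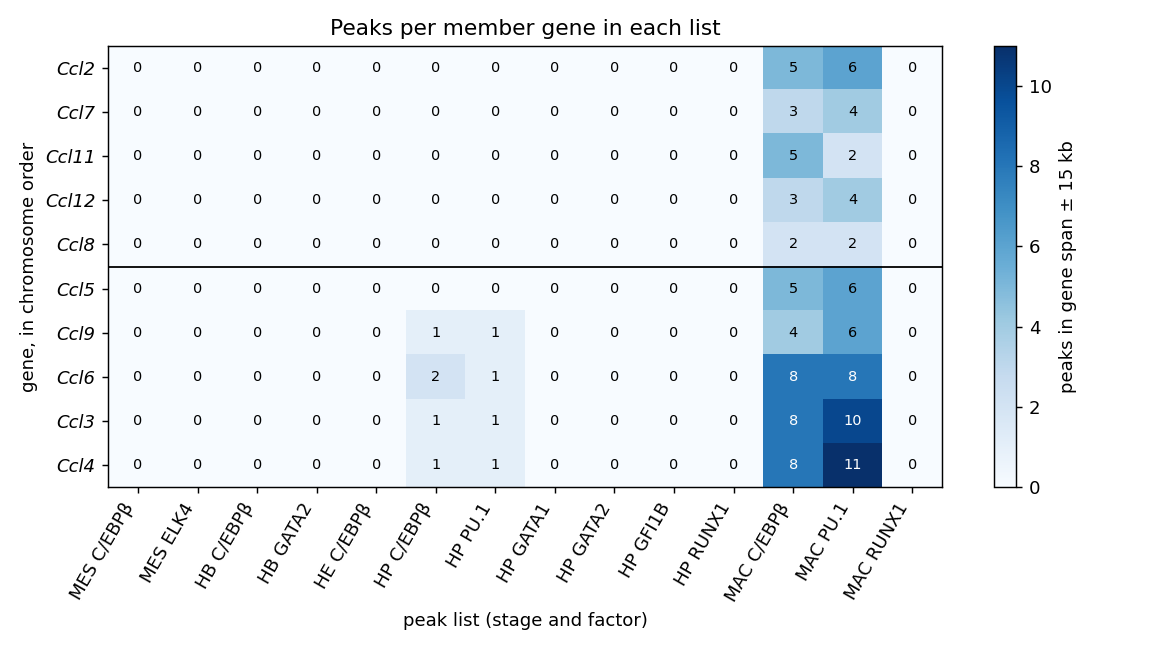
Number of peaks in the window of each member gene (rows, in chromosome order, with a line between the Ccl2 arm above and the Ccl5 arm below) in each of the 14 lists (columns, stage and factor). Peaks appear in HP C/EBPβ and HP PU.1 only in the rows from Ccl9 to Ccl4, and every row has peaks in MAC C/EBPβ and MAC PU.1.

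In HP, peaks were found at 4 of the 10 members and in the Ccl5 arm alone. C/EBPβ gave 1 peak in the window of Ccl9, 2 in that of Ccl6, 1 in that of Ccl3 and 1 in that of Ccl4, while 13.1% of all coding genes had a C/EBPβ peak in HP. PU.1 gave 1 peak in each of the same 4 windows, and 34.8% of coding genes had a PU.1 peak in HP. Because windows of neighbours overlap, these were 3 separate C/EBPβ peaks and 2 separate PU.1 peaks. Ccl5 and the 5 genes of the Ccl2 arm had no HP peak within 15 kb. With 5 kb on each side each HP list reached 1 member, Ccl9, beside 9.36% (C/EBPβ) and 26.2% (PU.1) of coding genes, and with each peak given to its nearest start site C/EBPβ reached 3 members and PU.1 reached 2. Ccl9, Ccl6, Ccl3 and Ccl4 were thus the 4 members with a peak in each of the HP and MAC lists of C/EBPβ and PU.1, as were 7.66% of all coding genes.

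The 3 DNA regions with an HP peak are shown, because HP was the earliest stage with a peak in the 15 kb windows. Each is given as the 300 bases around the centre of the HP C/EBPβ peak, on the plus strand of GRCm38. Capitals mark consensus words, each searched on both strands. The short form of the C/EBP consensus was written as TTGCNNAA, and the core of the PU.1 consensus, which is an ETS site, as GAGGAA. A further word of the ETS family, AGGAAGT, ends the full PU.1 word GAGGAAGT and so overlaps with the core. For factors that often act beside them, RUNX was searched with the letters TGTGGTT, the GATA factors with AGATAA, AP-1 with TGANTCA and the IRF factors with GAAANNGAAA.
Ccl9 first intron, chr11:83577196-83577495, plus strand: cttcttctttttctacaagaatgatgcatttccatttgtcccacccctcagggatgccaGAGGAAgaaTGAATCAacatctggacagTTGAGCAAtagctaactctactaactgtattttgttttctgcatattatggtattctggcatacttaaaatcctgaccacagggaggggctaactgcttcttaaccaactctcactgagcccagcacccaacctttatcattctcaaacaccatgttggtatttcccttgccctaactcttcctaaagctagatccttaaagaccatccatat
Ccl6 upstream region, chr11:83603491-83603790, plus strand: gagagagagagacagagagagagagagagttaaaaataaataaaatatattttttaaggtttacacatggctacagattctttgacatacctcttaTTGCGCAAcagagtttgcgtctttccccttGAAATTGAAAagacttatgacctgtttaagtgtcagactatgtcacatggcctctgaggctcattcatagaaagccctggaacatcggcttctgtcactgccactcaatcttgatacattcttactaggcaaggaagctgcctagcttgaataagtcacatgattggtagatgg
Region between Ccl6 and Ccl3, chr11:83640221-83640520, plus strand: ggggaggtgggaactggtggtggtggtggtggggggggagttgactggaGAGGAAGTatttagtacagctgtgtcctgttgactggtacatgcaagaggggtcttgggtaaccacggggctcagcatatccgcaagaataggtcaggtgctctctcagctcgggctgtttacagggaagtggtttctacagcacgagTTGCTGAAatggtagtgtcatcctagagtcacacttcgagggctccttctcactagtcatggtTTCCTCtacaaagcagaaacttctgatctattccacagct

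The first region lay in intron 1 of Ccl9, with the centre of the HP C/EBPβ peak 1291 bp downstream of the start site. All 4 lists met there, with peaks at chr11:83577146-83577545 (HP C/EBPβ), chr11:83577344-83577743 (HP PU.1), chr11:83577099-83577498 (MAC C/EBPβ) and chr11:83577369-83577768 (MAC PU.1). The C/EBPβ centres of HP and MAC were 47 bp apart, whereas the PU.1 centres lay 198 bp (HP) and 223 bp (MAC) from the HP C/EBPβ centre, both on the side nearer to the start of Ccl9. Each factor thus kept its place between the stages, and the C/EBPβ and PU.1 centres were further from each other than those of the same factor. In the printed stretch TTGCNNAA was present on the minus strand at bases 88 to 95. GAGGAA lay at bases 60 to 65 and an AP-1 word at bases 69 to 75. This GAGGAA lay outside both PU.1 peaks. Each of the PU.1 peaks held 2 GAGGAA words, which were beyond the printed stretch. Of the equal stretches around all 2716 HP C/EBPβ peaks, 62.2% held TTGCNNAA, 33.9% GAGGAA and 12.2% TGANTCA.

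The second region, chr11:83603441-83603859, had its HP C/EBPβ peak centre 10553 bp upstream of Ccl6 and lay in introns of the non-coding transcripts E230016K23Rik and Gm38933. It was bound by C/EBPβ in HP and in MAC, with centres 19 bp apart, and no PU.1 peak of either stage overlapped it. The nearest MAC PU.1 centre was 1167 bp away from that of MAC C/EBPβ. The sequence held TTGCGCAA at bases 97 to 104, 1 of the 4 forms of the stricter C/EBP word (TTGCACAA, TTGCATAA, TTGCGCAA and TTGCGTAA), which was present in 37.8% of the stretches around all HP C/EBPβ peaks. It also held an IRF word at bases 127 to 136, found in 3.9% of them, and neither GAGGAA nor AGGAAGT. Beyond the printed bases, the MAC C/EBPβ peak of this region held 1 GAGGAA.

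The third region, chr11:83640086-83640570, was intergenic and beyond the end of Ccl3, with its HP C/EBPβ peak centre 9008 bp downstream of the start of that gene. Here the 4 peaks were stacked, with the HP PU.1 centre 85 bp, the MAC C/EBPβ centre 16 bp and the MAC PU.1 centre 22 bp from that of HP C/EBPβ. The printed sequence carried GAGGAAGT at bases 50 to 57, a second PU.1 core at bases 261 to 266 and TTGCTGAA, a form of TTGCNNAA, at bases 198 to 205. GAGGAAGT was in 6.37% of the stretches around all HP C/EBPβ peaks. All 3 HP C/EBPβ peaks of the cluster held TTGCNNAA, as did 64% of all HP C/EBPβ peaks. Both HP PU.1 peaks held GAGGAA, as did 76.1% of all HP PU.1 peaks.

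Both regions bound by HP PU.1 were also bound by HP C/EBPβ. Over the whole lists, 14.9% of the HP C/EBPβ peaks (exact Clopper-Pearson 95% interval 13.6 to 16.3%) overlapped an HP PU.1 peak, against 2 of 3 in the cluster (9.43 to 99.2%). Of all HP PU.1 peaks, 3.71% overlapped an HP C/EBPβ peak. All 3 HP C/EBPβ peaks and both HP PU.1 peaks of the cluster overlapped a MAC peak of the same factor, as did 91.4% of all HP C/EBPβ peaks and 97% of all HP PU.1 peaks, so keeping the HP sites was usual for these lists. Intervals cover counting error only, and with 2 or 3 peaks they are wide. Of the 117293 regions made by merging overlapping peaks of all lists, 400 (0.341%) held all 4 of these lists, and of the 54 regions of the cluster 2 did (3.7%, interval 0.452 to 12.7%).

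Further HP peaks lay beyond the windows. Upstream of Ccl2, C/EBPβ was bound at chr11:82006733-82007132 in HP and at chr11:82006775-82007174 in MES, 28645 and 28603 bp before the Ccl2 start site, and a MAC C/EBPβ peak and a MAC PU.1 peak overlapped both. HP PU.1 had a peak 30570 bp before Ccl2. Upstream of Ccl5, HP GATA2 (chr11:83550060-83550459) and HP PU.1 (chr11:83550019-83550418) overlapped at 19741 and 19700 bp from the start site. HP PU.1 also had a peak 26154 bp upstream of Ccl6, at chr11:83619042-83619441, and one 33551 bp downstream of the Ccl4 start, at chr11:83695936-83696335, each overlapped by a MAC PU.1 peak. Taking 50 kb on each side in place of 15 kb, HP C/EBPβ reached 7 and HP PU.1 reached 7 of the members, among them Ccl2, Ccl7 and Ccl5, while Ccl11, Ccl12 and Ccl8 were still without an HP peak of these factors. With that window 23.4% of all coding genes had an HP C/EBPβ peak and 53.0% an HP PU.1 peak. The MES C/EBPβ and HP GATA2 peaks named above also fell in member windows at 50 kb. MES was then the earliest stage with a peak at a member.

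**Figure D2:**
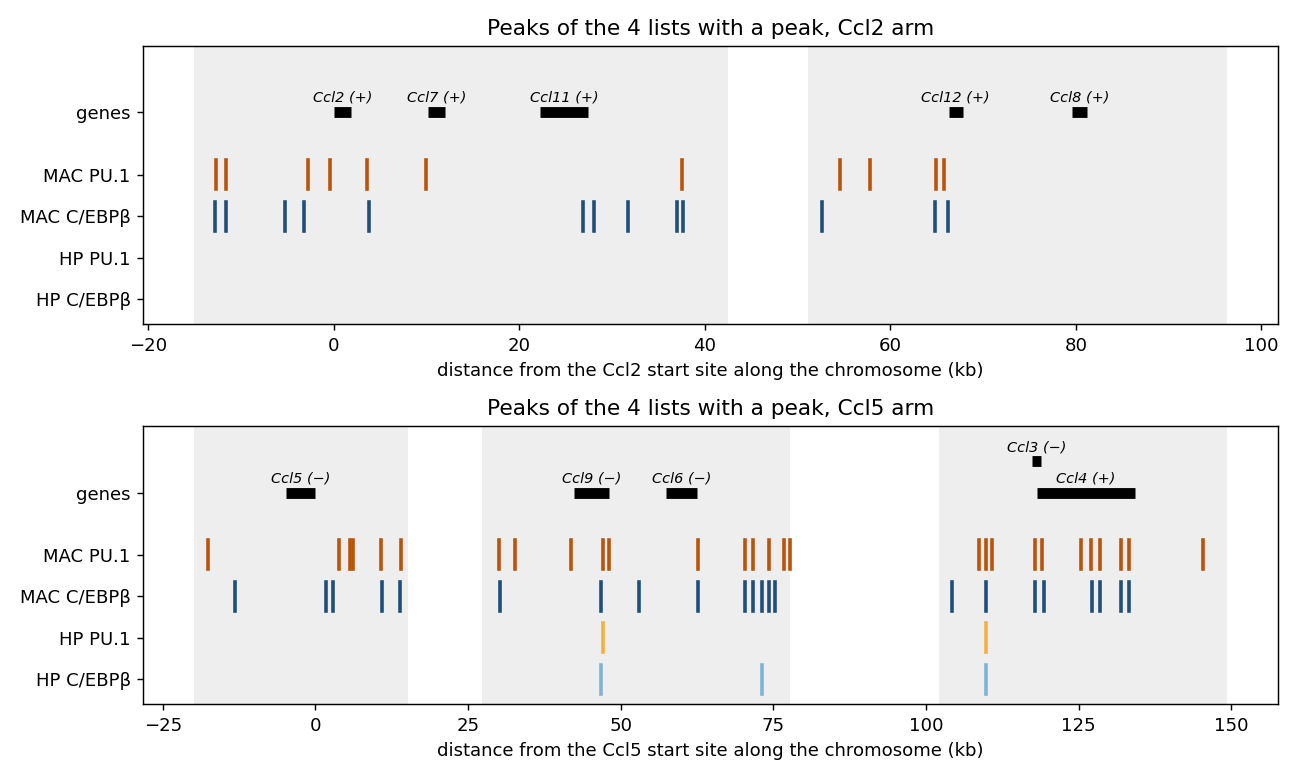
Peaks of the 4 lists that reached the cluster (ticks at peak centres, 1 row per list) and the member genes (black bars, strand in brackets), by distance in kb from the start site of Ccl2 (top) or Ccl5 (bottom) along the chromosome. Grey areas are the windows of 15 kb around the genes, the HP ticks fall only in the lower panel, and the area to the right of Ccl12 in the upper panel holds no tick.

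In MAC all 10 members had C/EBPβ peaks and all 10 had PU.1 peaks, while 71.2% and 77.6% of all coding genes did. In the Ccl2 arm, C/EBPβ had 5 peaks in the window of Ccl2, 3 in that of Ccl7, 5 in that of Ccl11, 3 in that of Ccl12 and 2 in that of Ccl8. PU.1 had 6, 4, 2, 4 and 2 in the same order. Ccl11 was the only member with more C/EBPβ than PU.1 peaks, and Ccl8 had the fewest of both factors together. In the Ccl5 arm, C/EBPβ had 5 peaks at Ccl5, 4 at Ccl9 and 8 each at Ccl6, Ccl3 and Ccl4, and PU.1 had 6, 6, 8, 10 and 11. The windows of Ccl3 and Ccl4 share most of their peaks, since the spans of these genes overlap. With the curated Ccl4 transcript alone, the counts of Ccl4 were 6 for C/EBPβ and 8 for PU.1.

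The median member had 5 MAC C/EBPβ peaks and 6 MAC PU.1 peaks, against medians of 2 and 3 over all coding genes. This order depended on the window. With 5 kb on each side the medians of members and coding genes were 2 and 1 for C/EBPβ but 1.5 and 2 for PU.1. For PU.1 the direction of the raw counts thus turned. With the gene span alone they were 1 and 1 for C/EBPβ and 0 and 1 for PU.1, and 6 and 4 of the 10 members had a peak, beside 51.5% and 62.6% of coding genes. Within the 15 kb windows, the coding genes had lower and upper quartiles of 0 and 4 for C/EBPβ and of 1 and 6 for PU.1. The members are short genes, with a median window of 33309 bp against 47219 bp for coding genes at 15 kb each side. This difference in length weighs more in the smaller windows, where counts per length were not taken. For the 15 kb windows the counts were also taken per 10 kb. The median member then had 1.43 C/EBPβ and 1.7 PU.1 peaks per 10 kb, and the median coding gene 0.301 and 0.533. For C/EBPβ, Ccl3 had 2.54 and Ccl6 had 2.27 peaks per 10 kb, above 99.98% and 99.93% of all coding genes, and Ccl8, the lowest member, had 0.633, above 75.4%. For PU.1, Ccl3 was again the highest at 3.17 peaks per 10 kb, above 99.7% of coding genes, and Ccl11 the lowest at 0.569, above 52.3%. The values of neighbours share peaks and are not independent, and no test was made. With each peak given to its nearest start site, Ccl3 had 1 C/EBPβ and 2 PU.1 peaks, Ccl4 had 7 and 9, and Ccl6 had 6 and 6. For Ccl4 this used the predicted start inside Ccl3 as well as the curated start. MAC peaks in the Ccl3 intron and beyond the end of Ccl3 in its window were thereby given to Ccl4. The curated start alone was not tried for this assignment.

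**Figure D3:**
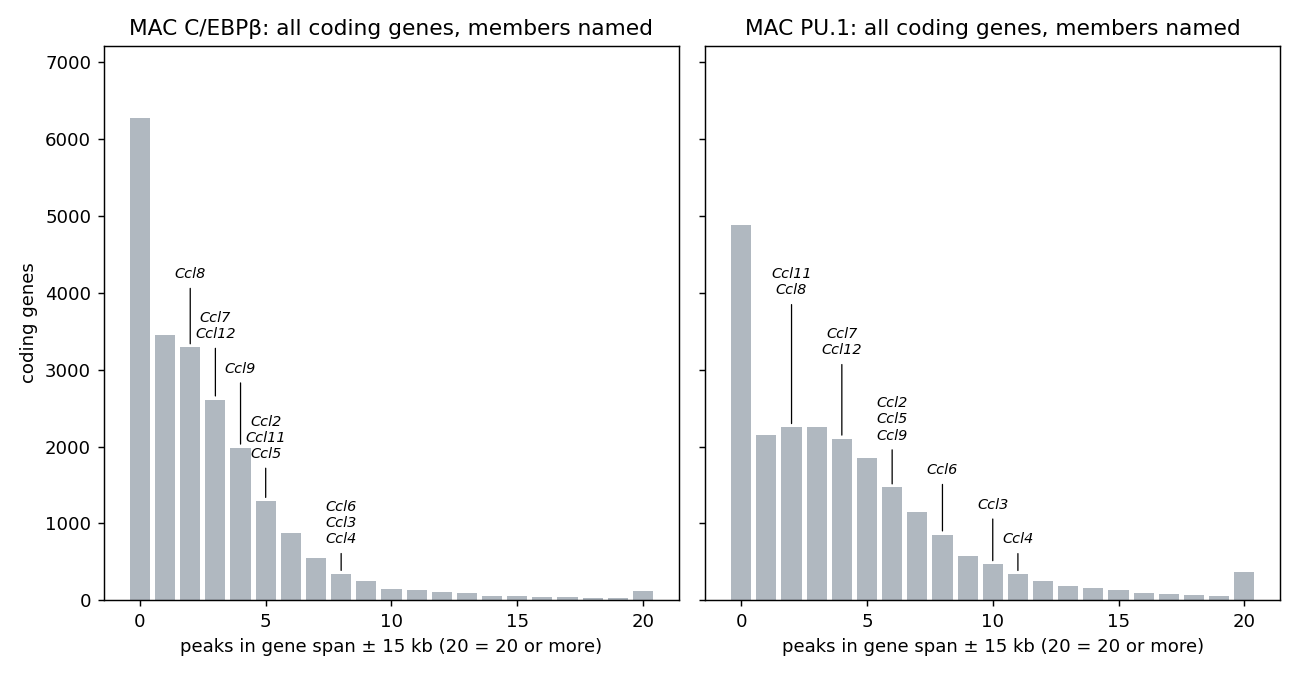
Number of protein-coding genes (vertical axis) by their number of MAC C/EBPβ peaks (left) or MAC PU.1 peaks (right) within the gene span and 15 kb each side, with 20 standing for 20 or more and the members named at their counts. Ccl6, Ccl3 and Ccl4 stand furthest to the right with 8 C/EBPβ peaks each and 8, 10 and 11 PU.1 peaks.

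Counted once each, 35 MAC C/EBPβ and 39 MAC PU.1 peaks lay in the 234087 bp of the joined windows, or 15 and 16.7 peaks per 100 kb. The genome without gaps had 2.1 and 3.13 per 100 kb and chromosome 11 had 3.06 and 5.12, in which regions far from any gene are included. The Ccl2 arm held 13 C/EBPβ and 11 PU.1 peaks, or 12.7 and 10.7 per 100 kb. The Ccl5 arm held 22 and 28, or 16.7 and 21.3 per 100 kb. PU.1 density was 1.98-fold and C/EBPβ density 1.31-fold higher in the Ccl5 arm than in the Ccl2 arm, in 1 list of each factor.

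Peaks were unevenly spread within the arms. No C/EBPβ or PU.1 peak of MAC was found over 34255 bp from chr11:82101955 to chr11:82136209, a stretch that holds the whole of Ccl8 and begins within the first exon of Ccl12. The 4 MAC peaks assigned to Ccl8 lay at and before the start of Ccl12, the nearest of each factor 13431 bp (C/EBPβ) and 13839 bp (PU.1) upstream of the Ccl8 start site and the other pair in a region centred 1415 bp upstream of Ccl12. A second bare stretch of 16597 bp held Ccl7 and the start of Ccl11, and another of 14524 bp held the whole of Ccl5. The windows of Ccl6, Ccl3 and Ccl4 held 23 of the 54 merged regions. These windows are 35202, 31536 and 46060 bp long, of 234087 bp in all, and those of Ccl3 and Ccl4 largely overlap. Merged regions per length were not counted.

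Since the authors kept reads with a unique position and the members are duplicates of one another, the share of 50-base words that occur once in GRCm38 was counted. Over the joined windows 95.5% of the words were unique, 92.9% in the Ccl2 arm and 97.5% in the Ccl5 arm. The window of Ccl8 had the lowest share, 79.5%, and the other windows had 94 to 99.5%. The repeated words near Ccl8 included blocks of 1425 and 1046 words that began 8046 and 9509 bp downstream of its start site, whereas 100% of the words within the Ccl8 gene itself were unique. The part of these blocks in the low count at Ccl8 was not tested.

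At the start sites, MAC PU.1 had a peak centre within 2 kb of 7 members and MAC C/EBPβ of 6, compared with 52.4% and 39.1% of all coding genes. Both factors were found at 5 members (Ccl12, Ccl9, Ccl6, Ccl3 and Ccl4), compared with 32.6% of coding genes. In HP 1 member, Ccl9, had C/EBPβ and PU.1 within 2 kb, through the peaks in its first intron, and 4.31% and 10.5% of coding genes had C/EBPβ and PU.1 there.

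At Ccl6 both MAC peaks covered the start site, with centres 55 bp (C/EBPβ) and 40 bp (PU.1) upstream of it. At Ccl3 the PU.1 peak covered the start site with its centre 90 bp upstream, and the C/EBPβ centre lay 436 bp upstream. At Ccl12 the order was the other way, with the C/EBPβ peak over the start site, centred 91 bp upstream, and the PU.1 centre 499 bp upstream. At the curated start of Ccl4 the C/EBPβ and PU.1 centres were 82 and 213 bp upstream, the former peak covering the start. These 4 genes had a peak of each factor within 1 kb.

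At Ccl9 a PU.1 peak covered the start site, with its centre 97 bp downstream, and the nearest C/EBPβ centre was the intron site, 1338 bp downstream. Ccl2 and Ccl7 had PU.1 alone near the start, 393 and 243 bp upstream, with the nearest C/EBPβ centres 3250 and 6406 bp away. Ccl5 had C/EBPβ alone within 2 kb, 1717 bp upstream, and its nearest PU.1 centre was 3917 bp upstream. Ccl11 and Ccl8 had neither factor within 2 kb, the nearest centre being 4634 bp downstream of the Ccl11 start (C/EBPβ, over an exon) and the Ccl12 peaks named above for Ccl8. The 10 genes thus fell into those with both factors, PU.1 alone, C/EBPβ alone and neither factor at the start, with 5, 2, 1 and 2 members.

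Of the RefSeq promoter sequences used here (GRCm38.p6), 5 matched members by symbol, Ccl12, Ccl8, Ccl9, Ccl6 and Ccl3. The 200 bases before the start site are shown for Ccl6, Ccl3 and Ccl12, 3 of the 4 genes with both factors within 500 bp of the start, and for Ccl8, which had no MAC peak nearer than 13431 bp. Each is written in the direction of transcription, with capitals as above.
Ccl6 promoter, chr11:83593088-83593287, minus strand: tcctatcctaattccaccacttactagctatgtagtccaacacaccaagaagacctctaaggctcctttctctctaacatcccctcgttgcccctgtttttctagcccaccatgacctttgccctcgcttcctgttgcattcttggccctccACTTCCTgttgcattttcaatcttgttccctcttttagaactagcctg
Ccl3 promoter, chr11:83649379-83649578, minus strand: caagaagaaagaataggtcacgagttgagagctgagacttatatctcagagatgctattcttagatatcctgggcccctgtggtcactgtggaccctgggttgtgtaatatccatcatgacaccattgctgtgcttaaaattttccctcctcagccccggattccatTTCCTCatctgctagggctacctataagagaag
Ccl12 promoter, chr11:82101645-82101844, plus strand: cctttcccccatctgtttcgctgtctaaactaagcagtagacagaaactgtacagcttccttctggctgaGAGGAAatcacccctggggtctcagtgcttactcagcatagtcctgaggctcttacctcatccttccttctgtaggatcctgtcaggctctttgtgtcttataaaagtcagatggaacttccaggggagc
Ccl8 promoter, chr11:82114985-82115184, plus strand: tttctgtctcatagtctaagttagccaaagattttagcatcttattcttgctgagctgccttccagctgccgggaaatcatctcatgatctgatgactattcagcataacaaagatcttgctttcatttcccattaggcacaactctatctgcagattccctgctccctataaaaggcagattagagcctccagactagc

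None of the 5 promoters held TTGCNNAA in this stretch, a word found in 7.47% of all 32851 promoter sequences, although MAC C/EBPβ peaks covered the start sites of Ccl6 and Ccl12. GAGGAA was in those of Ccl3 and Ccl12 and in 19% of all promoters. AGGAAGT, a word added after the Ccl6 sequence had been read, was on the minus strand of the Ccl6 promoter at bases 153 to 159 and in 6.34% of all promoters. The Ccl8 stretch held none of the marked words. Ccl12 and Ccl8, next to each other on the chromosome, had the most similar promoters of the 10 pairs, identical in 119 of 208 aligned positions (57.2%), and the other pairs were identical in 44.2 to 52.8%. The absence of a word says only that these letters were not in this window.

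Within MAC, 20 of the 35 C/EBPβ peaks of the cluster (57.1%, exact 95% interval 39.4 to 73.7%) overlapped a PU.1 peak, against 42.5% of all 55471 C/EBPβ peaks (42 to 42.9%). Of the 39 PU.1 peaks, 20 (51.3%, 34.8 to 67.6%) overlapped a C/EBPβ peak, against 28.5% of all 82866 (28.2 to 28.8%). The whole-list share was inside the interval of the cluster for C/EBPβ and below it for PU.1. The merged regions of the cluster comprised 20 with both factors, 15 with C/EBPβ alone and 19 with PU.1 alone, and none lacked a MAC peak of these factors (0 of 54, interval 0 to 6.6%), while 2.37% of all 117293 regions lacked one, a share inside that interval.

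By arm, 5 of 13 C/EBPβ peaks overlapped PU.1 in the Ccl2 arm (38.5%, 13.9 to 68.4%) and 15 of 22 in the Ccl5 arm (68.2%, 45.1 to 86.1%). Of the PU.1 peaks, 5 of 11 in the Ccl2 arm (45.5%, 16.7 to 76.6%) and 15 of 28 in the Ccl5 arm (53.6%, 33.9 to 72.5%) overlapped C/EBPβ. For both factors the intervals of the arms overlap. The distance from a C/EBPβ centre to the nearest PU.1 centre ranged from 12 to 10658 bp in the Ccl2 arm, with a median of 486 bp, and from 6 to 5022 bp in the Ccl5 arm, with a median of 130 bp. Over both arms the median was 163 bp, and over all MAC C/EBPβ peaks it was 813 bp. From PU.1 centres to the nearest C/EBPβ centre the medians of the arms were closer. They were 408 bp in the Ccl2 arm (12 to 6163 bp) and 308 bp in the Ccl5 arm (6 to 12127 bp). The closest pair was the region between Ccl6 and Ccl3 that was also bound in HP, with 6 bp between the MAC centres, followed by a pair in Ccl3 itself with 9 bp, at chr11:83648201-83648609. Among the C/EBPβ peaks, the largest distances were at the end of Ccl11 and just beyond it, 10658 and 9475 bp from PU.1.

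**Figure D4:**
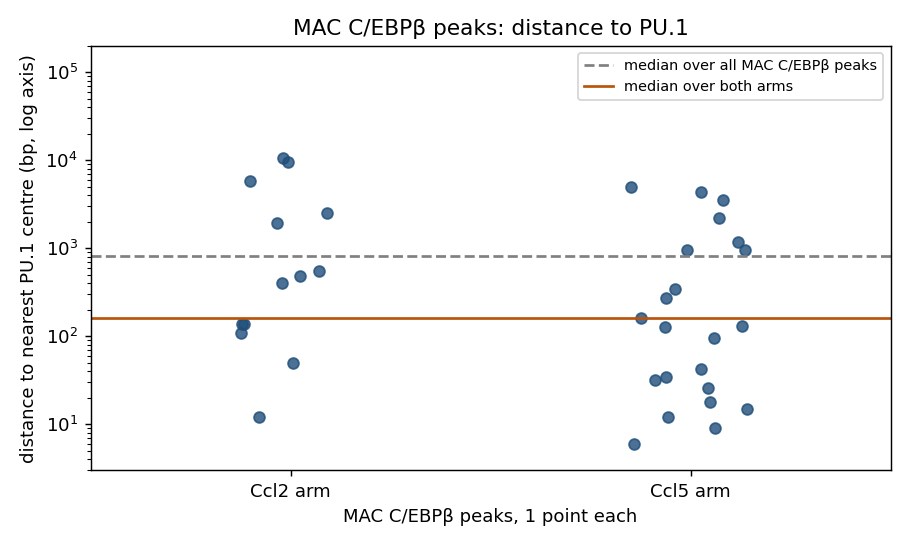
Distance in bp (log axis) from each MAC C/EBPβ peak centre in the Ccl2 arm (13 points) and the Ccl5 arm (22 points) to the nearest MAC PU.1 peak centre, with the median over both arms (solid line, 163 bp) and over all MAC C/EBPβ peaks (dashed line, 813 bp). In the Ccl5 arm 10 points and in the Ccl2 arm 2 points lie at or below 100 bp. Together these are 34.3% of the points, beside 28% of all MAC C/EBPβ peaks.

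The peaks of the cluster were also searched for the words of their own and of other factors. TTGCNNAA was in 20 of the 35 MAC C/EBPβ peaks (57.1%, interval 39.4 to 73.7%) and in 41.9% of all MAC C/EBPβ peaks, and the stricter C/EBP words in 5 of 35 (14.3%) and in 14.9% of all. GAGGAA was in 24 of the 39 MAC PU.1 peaks (61.5%, 44.6 to 76.6%) and in 65.3% of all, and GAGGAAGT in 7 of 39 (17.9%, 7.54 to 33.5%) and in 24.4% of all. For each factor the share of its own words in the cluster had an interval that held the share of the whole list. TTGCNNAA was in 13 of the 39 PU.1 peaks (33.3%, 19.1 to 50.2%) and in 17.7% of all PU.1 peaks, just below that interval. It was in 9 of the 20 PU.1 peaks that overlapped a C/EBPβ peak (45%, 23.1 to 68.5%) and in 4 of the 19 that did not (21.1%, 6.05 to 45.6%), and the latter interval held the share of all PU.1 peaks. The AP-1 word TGANTCA was in 10 of 39 PU.1 peaks (25.6%, 13 to 42.1%) and 15.8% of all. It was in 3 of the 20 PU.1 peaks that overlapped C/EBPβ (15%, 3.21 to 37.9%) and in 7 of the other 19 (36.8%, 16.3 to 61.6%). The share of all PU.1 peaks lay just below the latter interval. In C/EBPβ peaks the AP-1 word was in 4 of 35 (11.4%, 3.2 to 26.7%) and 23.3% of all. The IRF word was in 5 of 35 C/EBPβ peaks (14.3%, 4.81 to 30.3%) and 5.76% of all, and in 6 of 39 PU.1 peaks (15.4%, 5.86 to 30.5%) and 5.79% of all, so that the whole-list share lay just below the interval for PU.1 and inside it for C/EBPβ.

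The remaining words were at shares whose intervals held those of the whole lists. The RUNX word was in 4 of 35 C/EBPβ and 3 of 39 PU.1 peaks (11.4 and 7.69%, whole lists 11.1 and 10.3%) and the GATA word in 3 and 5 (8.57 and 12.8%, whole lists 17.5 and 17.3%). The NF-κB consensus was in 1 and 2 peaks (2.86 and 5.13%, whole lists 4.53 and 5.4%), the C/EBPβ peak with it lying 1717 bp upstream of Ccl5. The ETS word was in 12 and 19 peaks (34.3 and 48.7%, whole lists 21.7 and 45.3%). With 10 words in each list and further splits by overlap, the intervals were not adjusted for their number.

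**Figure D5:**
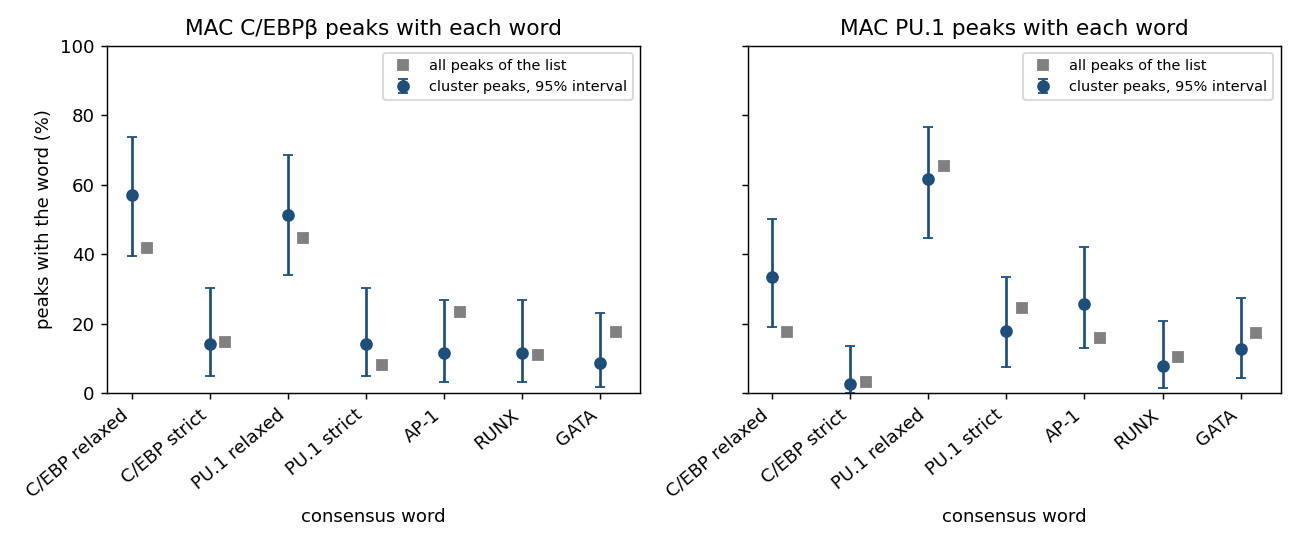
Share of MAC C/EBPβ peaks (left) and MAC PU.1 peaks (right) that hold the short and strict C/EBP and PU.1 words and the AP-1, RUNX and GATA words in the cluster (blue points, with exact 95% intervals) and in the whole list (grey squares). Among these words, which do not include the IRF word, the grey square lies inside the interval except for the short C/EBP word in PU.1 peaks, where 33.3% of the cluster peaks and 17.7% of all peaks held it.

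Of the 54 merged regions, 24 were intergenic at their centre, 8 were in an intron of a member (3 without the introns that only the predicted Ccl4 transcript has), 2 in an exon of a member and 20 in other annotated genes. The latter were long non-coding transcripts that cross the windows, among them E230016K23Rik around Ccl6 and Gm32650 around Ccl5, and the coding gene Heatr9 next to Ccl5.

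Other chemokine genes gave a measure of how common such counts were in the family. Among 11 other CC chemokines, 7 had a MAC C/EBPβ peak (median 2, range 0 to 4) and 9 a MAC PU.1 peak (median 4, range 0 to 8). The highest PU.1 counts were 8 at Ccl17, a T cell attractant, and 7 at Ccl26, and Ccl17, Ccl24 and Ccl25 shared the highest C/EBPβ count. The lymphoid tissue chemokines Ccl19 and Ccl21a had no peak of either factor, and Ccl20 and Ccl22 none of C/EBPβ. Ccl1, which lies next to Ccl8 on chromosome 11 but is no member, had 3 C/EBPβ and 4 PU.1 peaks. Of 14 CXC and CX3C chemokines, 13 had a C/EBPβ peak (median 1, range 0 to 5) and 13 a PU.1 peak (median 4, range 0 to 9), with 9 PU.1 peaks at Cxcl16 and 8 at Cxcl1, and 5 C/EBPβ peaks each at Cxcl1, Cxcl2 and Cxcl9. Cxcl12 had no C/EBPβ peak and Cxcl13 no PU.1 peak, and Cxcl11 was not matched among the coding genes. The members' medians of 5 and 6 were above those of both lists. Of all coding genes, 71.2% had a C/EBPβ and 77.6% a PU.1 peak, with medians of 2 and 3.

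In HP, PU.1 had a peak at 9 of the 14 CXC and CX3C genes and at 4 of the 11 other CC genes, and C/EBPβ at 1 of each (Cxcl9 and Ccl25), beside 4 of the 10 members for both factors and 34.8% (PU.1) and 13.1% (C/EBPβ) of all coding genes. No difference between the lists was tested.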

How the data were processed

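Peak lists of ChIP-seq for 7 factors were analysed, 14 lists with 1 per factor and stage. As the methods state, the authors trimmed reads with CutAdapt, aligned 50 bp reads to mm10 (GRCm38) with Bowtie, kept uniquely placed reads, removed duplicates with Picard, called peaks with MACS against the input of the same stage at a cutoff chosen by eye per list, refined them with polyPeak and set them to 400 bp around the summit. Some lists combined technical sequencing runs (C/EBPβ in MES, HE and HP, GATA2 in HB and RUNX1 in MAC), and carrier mRNA and histone 2B were added to the HE chromatin. Bowtie, bedtools and mm10 are also named in the submitters' processing notes, with versions not given in the sources used here. The deposited values are start and end positions alone, with no score, fold or p-value.

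From these, overlaps with RefSeq GRCm38 genes, start sites (a peak centre within 2 kb), shares with exact Clopper-Pearson 95% intervals, consensus words and the uniqueness of 50-base words were computed in Python 3.11.15 with NumPy 2.4.6, SciPy 1.17.1 and Matplotlib 3.10.9, by programs tested on simulated data. No significance test was made, since each group held 1 list. Groups came from the sample labels. The named genes are the 10 members, Ccl1, genes that a window overlaps, and, from the other chemokine lists, the highest 2 (with ties) and those without a peak. A list of receptor genes is not reported here. Regions were named when bound in a list other than MAC C/EBPβ or PU.1, when near a start site, or when bound in the most lists; bare stretches and peaks beyond the windows were named after their values were seen. The members and gene lists were chosen with earlier results of these data known. Alternatives varied the window, the assignment of peaks, the overlap, the promoter distance, the merging of regions and the background of genes.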

Additional observations from a re-analysis of the deposited data

How the results depend on the processing

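With the gene span alone, the cluster held 1 HP C/EBPβ, 1 HP PU.1, 10 MAC C/EBPβ and 10 MAC PU.1 peaks, these lists reached 1, 1, 6 and 4 members, and the medians per member were 1 (MAC C/EBPβ) and 0 (MAC PU.1). Of all coding genes, 6.71%, 20.2%, 51.5% and 62.6% then had a peak of these lists, with MAC medians of 1 and 1. With 5 kb each side there were 1, 1, 18 and 18 peaks, the HP lists reached 1 member each, and the MAC medians were 2 and 1.5, beside 9.36% and 26.2% of coding genes for the HP lists and coding medians of 1 and 2 in MAC. With 50 kb each side, HP PU.1 had 6 and MAC PU.1 63 peaks, both HP lists reached 7 members, and the medians were 1 (HP C/EBPβ), 1.5 (HP PU.1), 16.5 (MAC C/EBPβ) and 19 (MAC PU.1), beside coding medians of 0, 1, 5 and 7. The MES C/EBPβ and HP GATA2 lists, without a peak at 15 kb, each had a peak at 50 kb. With peaks given to the nearest start site, HP PU.1 reached 2 members. Within 1 kb of a start site, 0 members had an HP C/EBPβ peak and 0 an HP PU.1 peak. For MAC PU.1 the member median was thus below the coding median with the gene span alone and with 5 kb. It was above it with 15 and 50 kb. These are raw counts, and the members are short genes. The windows of other sizes hold less or more sequence by construction, and the nearest start site gives a peak to 1 gene. The other 39 of the alternatives for counts and shares of the cluster stayed within 1.5 times the count, or within the interval of the share, among them an overlap of 200 bp, a peak centre in the window and regions merged within 1 kb. Counts of single members changed by over 1.5 times in 65 of 102 cases, most of them with another window. The span of the curated Ccl4 transcript was an alternative added after seeing the data.

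Leaving out a replicate and a stricter threshold were not run, since each group held 1 list without scores. No paired analysis was possible because each group had 1 sample. Depth was not analysed here, and the absence of a peak is the absence of a call in that list.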
